A study of Mus musculus with 2 samples.

Results

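The respiratory chain genes were taken as every listed gene whose symbol starts with mt-, Nduf, Sdha, Sdhb, Sdhc, Sdhd, Uqcr, Cox4, Cox5, Cox6, Cox7, Cox8 or Atp5. The rule took 128 of 18049 listed genes, of which 24 are encoded by the mitochondrial genome and 104 by nuclear chromosomes. The mitochondrial group held 10 mRNAs, 2 ribosomal RNAs and 12 tRNAs. mt-Co2, mt-Atp6 and mt-Atp8 were not analysed here, so the mRNA group is incomplete and holds no subunit of complex V, and every mitochondrial share or ratio is over the listed genes. The nuclear group held 81 subunits (38 of complex I, 4 of complex II, 8 of complex III, 14 of complex IV and 17 of complex V), 12 assembly factors and 11 symbols that are pseudogenes by name or by RefSeq biotype. Nuclear members were placed in a complex by symbol prefix alone, so that every Nduf symbol, Ndufa4 among them, counts as complex I. All 128 had at least 1 UMI, a counted RNA molecule, in the classed cells of both libraries.

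The cells were MHCIIhi CD11c+ B220- cells sorted from skin-draining lymph nodes of mice, the gate that holds migratory dendritic cells (DCs) from the skin. One library came from unimmunized (naive) mice, C57BL/6N by the methods of the study, which used young adult mice of both sexes, and 1 library from mice given the antigen OVA with the protease allergen papain in the footpads 1 day earlier. Each library was split by the authors, from surface antibody tags, into CD301bhi, CD301bint and CD301blo type 2 conventional DCs (cDC2), cDC1 and Langerhans cells (LC). The classed cells numbered 3042 in the naive library and 7306 in the papain library. With 1 library per condition there is no replicate and no test between conditions, and every interval below covers counting error only. The labels name popliteal nodes for both groups, whereas the methods of the study describe pooled skin-draining nodes for naive mice, so node site and immunization cannot be told apart.

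The chain sits in the inner mitochondrial membrane. Complex I (NADH dehydrogenase) and complex II (succinate dehydrogenase) take electrons from metabolites, complex III and complex IV (cytochrome c oxidase) pass them on to oxygen, and complex V (ATP synthase) uses the resulting proton gradient to make ATP. Most subunits are encoded in the nucleus and imported, while a few core subunits of complexes I, III, IV and V are transcribed inside the organelle from both strands of its circular genome, as long precursors that are then cut. Complex II has no mitochondrially encoded subunit. In DCs the balance between this pathway and glycolysis is known to move with activation.

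The median cell held between 10768 and 15807 UMIs in the 5 naive classes and between 11351 and 18290 in the 5 papain classes. Only 2 barcodes were shared by the libraries. The labelled classes carried their markers: Epcam, Cd207 and Cldn1 together stood at 177 CPM (UMIs scaled to a total of 1000000) in naive LC against 16.6 to 57.3 in the other naive classes, and at 236 CPM in papain LC against 6.87 to 20.5. The markers Xcr1, Clec9a, Cadm1, Irf8 and Itgae together were also highest in cDC1, at 624 CPM (naive) and 863 CPM (papain), with LC next at 397 and 542 CPM. Most of that sum was Irf8, at 566 and 830 CPM in cDC1. Of the others, Xcr1 (16.9 and 9.44 CPM), Cadm1 (27.5 and 13.02 CPM) and Itgae (8.11 and 0.651 CPM) were lower in papain cDC1, and Clec9a (5.48 and 10.1 CPM) was higher. T cell transcripts differed by library and class. The 5 T cell markers, all of which had UMIs in both libraries, summed to 10.7 to 192 CPM in the naive classes, highest in cDC1, and to 9.55 to 25.4 CPM in the papain classes. The 4 B cell markers, likewise all detected, summed to 12.7 to 62.5 CPM in the naive and 4.49 to 31.6 CPM in the papain classes. The part of these cells in the results was examined only by leaving out every cell in which Cd3e or Trac was counted. Genes of cDC2 (Sirpa, Mgl2, Irf4, Cd209a and Ccl17) summed to 488 to 667 CPM in the naive cDC2 classes and 513 to 999 CPM in the papain ones, against 106 and 157 CPM in cDC1, but papain LC were within the cDC2 range at 888 CPM. Ccl17 made up most of this sum, at 277 to 418 CPM in the naive and 385 to 847 CPM in the papain cDC2 classes. Cd209a, at 32.2 to 47.8 CPM in naive cDC2, was at 0.0680 to 1.38 CPM in papain cDC2, and Mgl2, the gene of CD301b, at 15.2 to 59.1 and 0.476 to 1.21 CPM. Sirpa was also lower in the papain cDC2 classes (82.8 to 113 and 52.4 to 80.8 CPM) and Irf4 higher (47.6 to 64.7 and 69.7 to 78.7 CPM). Genes of migratory DCs (Ccr7, Fscn1, Cd74 and H2-Ab1) summed to between 8415 and 18689 CPM in every class.

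Mitochondrial and nuclear-encoded members differed in opposite directions between the libraries. Mitochondrial genes took 4.05% of UMIs in naive classed cells and 3.04% in papain classed cells, a log2 ratio of -0.41 (95% interval -0.42 to -0.41). The nuclear-encoded members took 1.15% and 1.34%, a log2 ratio of 0.22 (0.22 to 0.23). The ratio of mitochondrial to nuclear-encoded UMIs was thus 3.53 in naive and 2.27 in papain cells, and the log2 ratio of the mitochondrial group minus that of the nuclear-encoded group was -0.64. With the classes weighted equally this difference was -0.57, and in cells with no count of Cd3e or Trac it was -0.64. A share is relative to all UMIs of the cells, so a lower share does not by itself mean fewer molecules per cell.

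The mitochondrial share was lower in the papain library in all 5 classes. It was 3.90% and 2.88% in CD301bhi cDC2, 4.29% and 2.99% in CD301bint cDC2, 4.16% and 3.48% in CD301blo cDC2, 3.78% and 3.35% in cDC1, and 4.22% and 3.08% in LC, naive value first. The nuclear-encoded share was higher in the papain library in 4 of 5 classes. It was 1.04% and 1.31% in CD301bhi cDC2, 1.10% and 1.35% in CD301bint cDC2, 1.15% and 1.36% in CD301blo cDC2, and 1.15% and 1.37% in LC. In cDC1 it was 1.31% and 1.24%, a log2 ratio of -0.08 (-0.10 to -0.06). Naive cDC1 had the highest nuclear-encoded share of the naive classes and papain cDC1 the lowest of the papain classes.

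**Figure D1:**
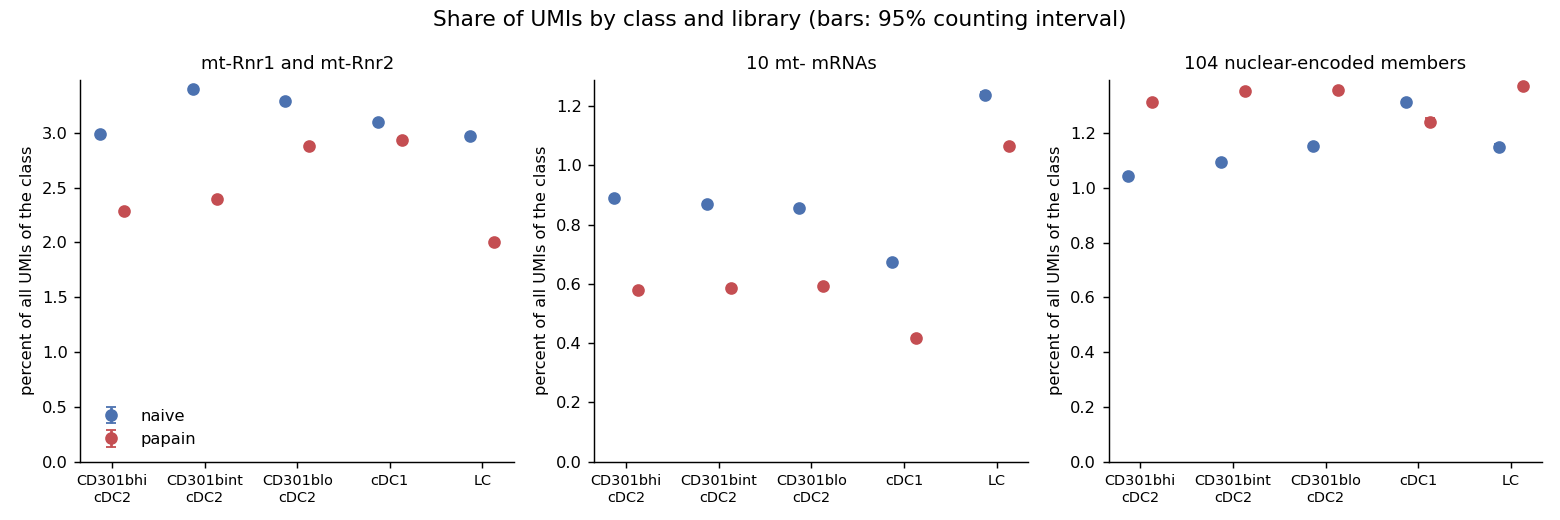
Percent of all UMIs of each class (y axis) that fell on the 2 mitochondrial ribosomal RNAs, the 10 mitochondrial mRNAs and the 104 nuclear-encoded members, by class (x axis) in the naive (blue) and papain (red) library, with 95% counting intervals mostly smaller than the points. Ribosomal RNA and mRNA shares sit lower in the papain library in all 5 classes, LC stand above the other classes in mitochondrial mRNA, and the nuclear-encoded share is higher in papain except in cDC1 (1.31% naive, 1.24% papain).

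The 2 ribosomal RNAs made up 78.1% of naive and 78.2% of papain mitochondrial UMIs. mt-Rnr2, the large ribosomal RNA, alone stood at 28671 CPM in naive and 21496 CPM in papain classed cells, and mt-Rnr1, the small one, at 2983 and 2284 CPM. The mRNAs took 0.874% and 0.654% of all UMIs. Their log2 ratio was -0.42 over all classes, but the classes differed in which kind of RNA was lower. In cDC1 the mRNAs were at -0.69 (-0.72 to -0.66) and the ribosomal RNAs at -0.08 (-0.09 to -0.07). In LC the order was turned, with mRNAs at -0.22 (-0.23 to -0.20) and ribosomal RNAs at -0.57 (-0.58 to -0.56). Papain LC were deeper (a median of 18290 UMIs per cell against 10768), and when LC were split into 5 bands of UMIs per cell the mRNA share was lower in the papain library in 2 bands and higher in 3. The 3 cDC2 classes lay between, with mRNAs at -0.53 to -0.62 and ribosomal RNAs at -0.19 to -0.51.

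A member was called higher or lower when its CPM differed at least 1.5-fold and the higher of both values was 10 CPM or more. Over all classed cells, 13 of the 24 mitochondrial genes and 88 of the 104 nuclear-encoded members reached that level. All 13 mitochondrial genes were below 0 on the log2 scale, 1 was called lower, and their median was -0.39. Of the 88 nuclear-encoded members 70 were above 0, 11 were called higher and 1 lower, and their median was 0.27. Among the 7363 listed genes over the level limit, 7.96% were called higher and 8.30% lower, and the median was 0.06. The number called higher depended on the setting: it was 4 with 10 added to both CPM values, 5 relative to the median ratio of all genes, and 8 with classes weighted equally.

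mt-Nd4l, a small core subunit of complex I, was the only mitochondrial member called over all classes. It stood at 295, 291, 308, 255 and 639 CPM in naive CD301bhi cDC2, CD301bint cDC2, CD301blo cDC2, cDC1 and LC, and at 130.3, 144.5, 170.2, 109 and 292 CPM in the same papain classes. Each papain value was below the naive value of its class, and over all classes the papain level was 0.500-fold the naive level (95% interval of the log2 ratio -1.03 to -0.97). mt-Nd4, whose gene follows it on the same strand (chrMT:10167-11544 against chrMT:9877-10173 in GRCm38.p6, so that the ends overlap), stood at 1546 and 1117 CPM, a log2 ratio of -0.47. Reads in the overlap cannot be assigned to one of the pair.

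The other complex I mRNAs of the organelle were lower by less. mt-Nd1 stood at 1481 CPM in naive and 1204 CPM in papain classed cells (log2 ratio -0.30), mt-Nd2 at 1607 and 1198 CPM (-0.42), mt-Nd3 at 237 and 169 CPM (-0.48), mt-Nd5 at 451 and 356 CPM (-0.34) and mt-Nd6 at 379 and 303 CPM (-0.32). The genes of mt-Nd5 (chrMT:11742-13565) and mt-Nd6 (chrMT:13552-14070) overlap at their ends on opposite strands. mt-Cytb, the core subunit of complex III, stood at 2018 and 1412 CPM (-0.52). mt-Co1, the catalytic subunit of complex IV, had the smallest difference, with 691 and 615 CPM (-0.17, interval -0.19 to -0.15). mt-Co3, another subunit of complex IV, was at 0.742 and 0.703 CPM, under the level limit. Its gene lies between those of mt-Co1 and mt-Nd3, which stood far higher. How reads were assigned to mt-Co3 is not given in the sources used here, so its value is uncertain, and the mRNA sums in effect lack it. Of the tRNAs, mt-Tp (58.0 and 45.4 CPM) and mt-Tq (36.8 and 31.3 CPM) passed the limit, with log2 ratios of -0.35 and -0.23. The other 10 tRNAs stood between 0.109 and 8.82 CPM, with mt-Tc at the upper end.

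Within classes the mitochondrial genes were not uniform. In CD301bhi cDC2 9 of 13 were called lower, in CD301bint cDC2 5 of 13, in CD301blo cDC2 7 of 14, in cDC1 7 of 13 and in LC 3 of 14. Over all listed genes 8.39%, 10.5%, 14.2%, 12.6% and 9.21% were called lower in these classes. No mitochondrial gene over the limit was above 0 in the 3 cDC2 classes or in cDC1. In LC, mt-Nd1, mt-Nd6, mt-Co1, mt-Tp and mt-Tq were above 0 and mt-Tq was called higher (23.5 and 37.4 CPM), with mt-Nd1 at 1887 CPM in naive and 2155 CPM in papain cells. mt-Tc, a tRNA, stood at 16.2 CPM in naive LC and 3.98 CPM in papain LC.

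**Figure D2:**
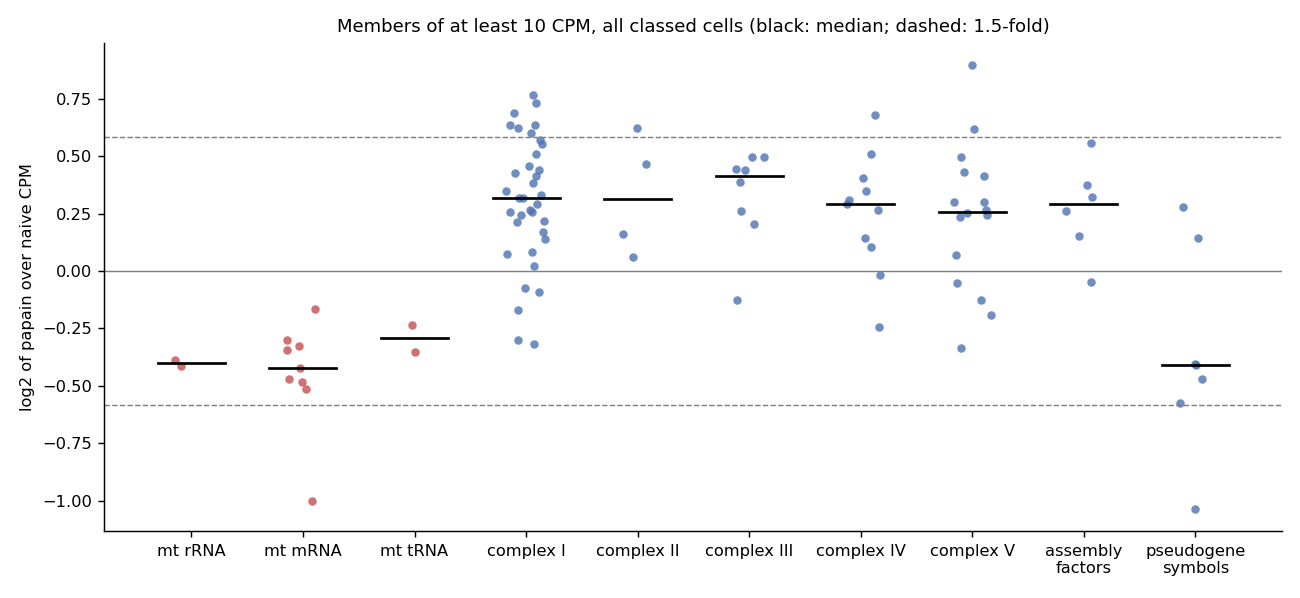
log2 of papain over naive CPM over all classed cells (y axis) for every member of at least 10 CPM, with 1 point per gene, grouped by kind and complex (x axis); black lines are medians and dashed lines mark 1.5-fold. All 13 mitochondrial genes (red) lie below 0 with mt-Nd4l lowest, while 70 of 88 nuclear-encoded members (blue) lie above 0 and the pseudogene symbols lie mostly below.

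The nuclear-encoded subunits of all 5 complexes were higher as a sum in the papain library. Complex I subunits summed to 3127 CPM in naive and 3905 CPM in papain classed cells, a log2 ratio of 0.32 (0.31 to 0.33). Complex II, the complex with no mitochondrial subunit, stood at 174 and 219 CPM, a log2 ratio of 0.33 (0.29 to 0.37). Complex III was at 1332 and 1515 CPM (0.19), complex IV at 3253 and 3718 CPM (0.19) and complex V at 2765 and 3221 CPM (0.22). Of the members over the level limit, 31 of 36 were above 0 in complex I, 4 of 4 in complex II, 7 of 8 in complex III, 9 of 11 in complex IV and 12 of 16 in complex V. The calls fell as 7, 1, 0, 1 and 2 in that order of complexes, all higher. Beside them, 7.96% of the 7363 listed genes over the limit were called higher and 4149 were above 0. Each complex has few members, and whether any complex differs from these shares was not tested. In complex III, where no subunit was called, Uqcrc1, a core protein, had the highest ratio with 40.6 and 57.3 CPM (0.50). Of the 6 assembly factors over the limit 5 were above 0 and none was called.

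Atp5j, coupling factor 6 of ATP synthase, had the highest ratio of all members over the level limit. It stood at 96.7, 94.1, 109, 99.7 and 99.1 CPM in naive CD301bhi, CD301bint and CD301blo cDC2, cDC1 and LC, and at 188, 189, 183, 141 and 182 CPM in the same papain classes. All 5 papain values lay above all 5 naive values, and the log2 ratio over all classes was 0.90 (0.85 to 0.94). The called members here and below were picked by that ratio, so class values lying apart follow in part from the choice. The classes of 1 library are also not replicates. How often other listed genes lie apart in this way was not counted. Atp5o, the oligomycin sensitivity protein of the ATP synthase stalk, stood at 27.1 to 39.7 CPM in the naive and 50.8 to 57.1 CPM in the papain classes (log2 ratio 0.62).

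In complex I, Ndufv2, an iron-sulphur subunit of the NADH-binding module, stood at 55.4, 56.9, 59.6, 117 and 55.3 CPM in the naive classes and at 111, 112, 109, 122 and 90.4 CPM in the papain classes, in the same order. Naive cDC1 were already at the papain level, and with that class the ranges of the libraries overlapped. Ndufa11, an accessory subunit of the membrane arm, stood at 53.6 to 71.2 CPM in the naive and 89.8 to 111 CPM in the papain classes, with no overlap. The accessory subunit Ndufb6 was at 33.0 to 36.7 and 34.2 to 59.8 CPM, Ndufb7 at 129 to 153 and 176 to 211 CPM, Ndufb8 at 74.9 to 89.4 and 98.3 to 130 CPM, and Ndufc1 at 46.8 to 55.2 and 53.1 to 88.2 CPM, naive range first, so that Ndufb6 and Ndufc1 overlapped between the libraries and Ndufb7 and Ndufb8 did not. Papain cDC1 gave the lowest papain value for Ndufa11, Ndufb6, Ndufb7, Ndufb8 and Ndufc1. Ndufb4c, a coding copy of Ndufb4, was also called, at 171 and 292 CPM over all classes. Since reads could be split between near-identical copies, its value is uncertain, and Ndufb4 itself was at 14.4 and 17.2 CPM.

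Sdhb, the iron-sulphur subunit of succinate dehydrogenase, stood at 32.8, 33.6, 36.7, 45.4 and 36.1 CPM in the naive and at 55.3, 57.3, 59.2, 60.2 and 56.6 CPM in the papain classes. The papain values varied little and all lay above the naive ones. Its partners differed less, with Sdha at 66.0 and 68.8 CPM, Sdhc at 19.6 and 21.9 CPM and Sdhd at 51.8 and 71.7 CPM over all classes. Cox6c, a small accessory subunit of cytochrome c oxidase, stood at 176 and 282 CPM (log2 ratio 0.68), and its near-identical copy Cox6c2, a pseudogene by RefSeq, at 184 and 204 CPM. Just outside the limit of 1.5-fold lay Ndufv3 at 0.57 and the assembly factor Sdhaf4 at 0.56.

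**Figure D3:**
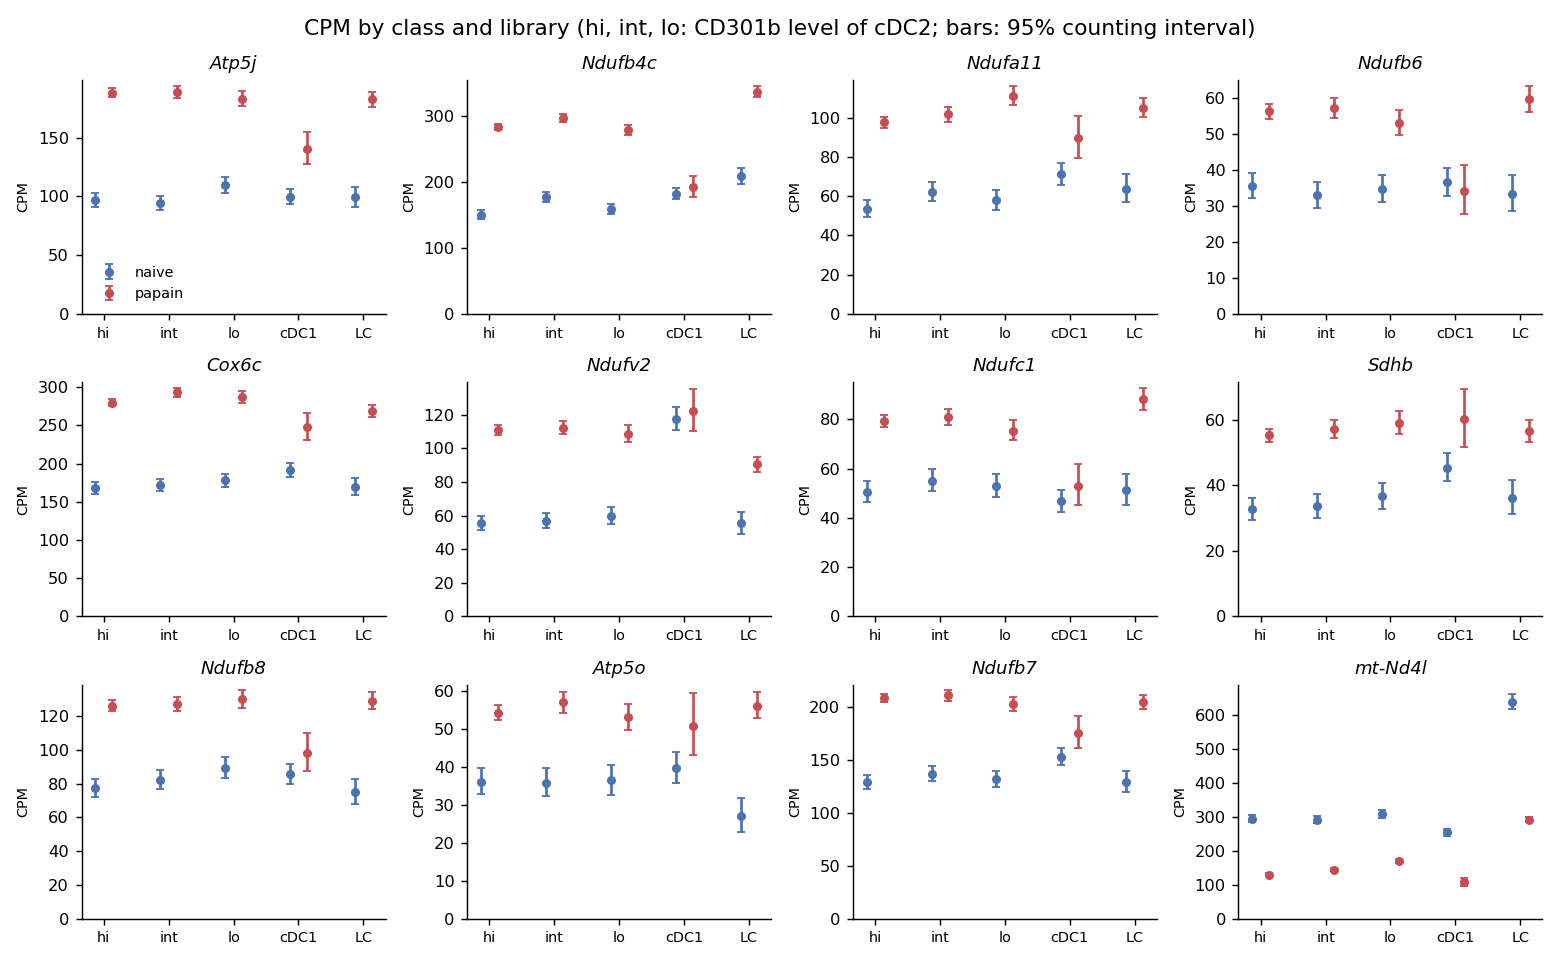
CPM (y axis) by class (x axis) in the naive (blue) and papain (red) library for the 11 nuclear-encoded subunits called higher over all classes and for mt-Nd4l, which was called lower, with 95% counting intervals. These genes were chosen by their all-class ratio. Red points lie above blue ones in the cDC2 classes and LC for all 11, while in cDC1 the pairs lie closer and Ndufb6 is slightly lower in papain (34.2 against 36.7 CPM), and mt-Nd4l shows the opposite order with LC highest in both libraries.

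The promoters of the nuclear-encoded members were read from RefSeq windows of GRCm38.p6 (250 bases before to 50 bases after each start). Of the 104 nuclear-encoded members 77 had a window, 82 windows in all. They were searched on both strands for motifs of 3 factors known to bind respiratory chain promoters, NRF1 (GCGCANGCG), ETS factors such as GABP (CCGGAAG) and YY1 (AAGATGGC). NRF1 letters were in 30.5% of members' windows and 6.25% of all 32851 windows, ETS letters in 26.8% and 8.86%, and YY1 letters in 12.2% and 2.75%. At least 1 of the 3 was in 57.3% and 16.0%. Of the 10 windows of 9 called members, 8 held at least 1, in 4 of them before the start. NRF1 letters were in 20% of these 10 windows, below the share of all members' windows, ETS letters in 40% and YY1 letters in 30%. Whether any motif goes with the ratio between libraries was not tested. A match is a description of letters and not of a binding site. The 250 bases before the start are shown 5′ to 3′ for 4 called members, with matches in capitals: Atp5j, which had the highest ratio (from 1 of its 2 starts in this table, the other stretch holding no match), Ndufa11 as a case with NRF1 letters (overlapping matches on both strands), Ndufb7 with ETS letters near the start, and Sdhb of complex II with none in this stretch.
Atp5j, chr16:84834977-84835226, minus strand: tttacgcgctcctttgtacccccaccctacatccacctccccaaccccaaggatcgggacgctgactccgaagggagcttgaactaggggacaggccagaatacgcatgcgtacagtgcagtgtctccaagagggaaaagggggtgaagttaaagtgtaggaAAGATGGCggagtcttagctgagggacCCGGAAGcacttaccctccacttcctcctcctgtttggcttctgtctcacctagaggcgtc
Ndufa11, chr17:56717512-56717761, plus strand: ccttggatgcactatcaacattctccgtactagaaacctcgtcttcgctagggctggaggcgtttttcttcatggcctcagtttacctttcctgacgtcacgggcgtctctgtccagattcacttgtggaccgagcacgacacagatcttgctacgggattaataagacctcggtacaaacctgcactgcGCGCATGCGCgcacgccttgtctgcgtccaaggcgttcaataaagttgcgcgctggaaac
Ndufb7, chr8:83566508-83566757, plus strand: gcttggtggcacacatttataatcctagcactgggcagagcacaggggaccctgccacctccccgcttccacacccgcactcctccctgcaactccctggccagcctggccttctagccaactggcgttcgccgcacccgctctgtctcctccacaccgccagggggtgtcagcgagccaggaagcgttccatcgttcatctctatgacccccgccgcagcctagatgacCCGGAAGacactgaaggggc
Sdhb, chr4:140961021-140961270, plus strand: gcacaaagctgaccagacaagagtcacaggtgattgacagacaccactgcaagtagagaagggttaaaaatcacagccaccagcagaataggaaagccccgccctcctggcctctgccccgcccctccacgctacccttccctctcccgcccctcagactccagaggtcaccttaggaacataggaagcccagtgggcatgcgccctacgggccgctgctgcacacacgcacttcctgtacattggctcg

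The Atp5j stretch held YY1 letters from 88 bases and ETS letters from 61 bases before the start, Ndufa11 NRF1 letters from 60 bases, and Ndufb7 ETS letters from 20 bases before it.

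In the papain library 19 of 88 nuclear-encoded members (21.6%) were called higher in CD301bhi cDC2 and 18 of 88 (20.5%) in CD301bint cDC2. In CD301blo cDC2 11 of 90 (12.2%) and in LC 20 of 88 (22.7%) were called higher. The share of all listed genes called higher was 10.2%, 10.7%, 11.0% and 14.4%, so CD301blo cDC2 lay near it. In these classes 2, 1, 3 and 2 nuclear-encoded members were called lower, against 8.39%, 10.5%, 14.2% and 9.21% of all genes. In cDC1 none of 87 was called higher, against 10.3% of all genes. There 6 (6.90%) were called lower, against 12.6% of all genes. Papain cDC1 numbered 235 cells, so counting error is wider there. The median of the 87 was -0.03, beside 0.02 for all genes. Those lower were Ndufb2 (53.9 CPM naive, 27.0 CPM papain), Ndufa5 (42.1 and 24.1 CPM) and the pseudogene symbols Ndufb1-ps (326 and 165 CPM), Atp5k-ps2, Uqcrh-ps1 and Uqcrh-ps2. The naive cDC1 also carried the most T cell transcripts, 192 CPM against 25.4 CPM in papain cDC1. The LC markers Epcam (29.2 and 7.49 CPM) and Cldn1 (19.0 and 7.16 CPM) and the cDC1 markers Xcr1 and Cadm1 were likewise called lower in papain cDC1. Of the other cDC1 markers, Clec9a was called higher (5.48 and 10.1 CPM), Irf8 was higher without a call (566 and 830 CPM) and Itgae was under the level limit. The part of LC and cDC1 marker levels in the cDC1 difference was not tested. In cells with no count of Cd3e or Trac, the log2 ratio of the nuclear-encoded sum in cDC1 was again -0.08. Ndufs8, Atp5g1, Uqcr10 and Uqcr11 were called only in LC among the 5 classes, with ratios of 0.94, 0.93, 0.87 and 0.82 (these genes, and those named for cDC1, were picked after their values were seen). Whether these ratios differ between classes beyond library to library spread was not tested.

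Across the 5 classes, 40 of the 88 nuclear-encoded members were above 0 in every class and 7 below 0 in every class. Of the 13 mitochondrial genes 8 were below 0 in every class. Of all 7363 listed genes over the limit, 26.2% were above 0 and 18.2% below 0 in all 5. The most abundant subunits differed little. Cox4i1 of complex IV stood at 704 and 757 CPM, Atp5e of complex V at 594 and 624 CPM, and Uqcrh of complex III at 556 and 509 CPM over all classes. The lowest ratios among subunits were Atp5mpl in complex V (-0.33), Ndufb2 and Ndufa6 in complex I (-0.32 and -0.30), Cox7a2l in complex IV (-0.25) and Uqcrh in complex III (-0.13). Cox7a2l, which shapes the joining of complexes III and IV, was at 524 CPM in naive LC, above the 336 to 411 CPM of the other naive classes, and at 313 to 362 CPM in the papain classes.

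Pseudogene symbols were mostly lower in the papain library. Of the 7 over the limit 5 were below 0, with a median of -0.41. Uqcrh-ps2 was the only nuclear-encoded member called lower, at 13.8 and 6.71 CPM, and Uqcrh-ps1 stood at 45.0 and 30.2 CPM. How reads were divided between a gene and its copies is not given in the sources used here, so these values are uncertain. Of the paired isoforms, the widely used forms carried nearly all UMIs: Cox6a1 was at 156 and 188 CPM against 1.33 and 0.100 CPM for the muscle form Cox6a2, Cox6b1 at 340.3 and 422 CPM against 7.67 and 5.45 CPM for Cox6b2, and Cox7a2 at 220.4 and 269.8 CPM against 1.07 and 1.84 CPM for Cox7a1. Among the 3 genes for the c ring of ATP synthase, Atp5g3 was at 92.4 and 109 CPM, Atp5g1 at 49.7 and 70.0 CPM and Atp5g2 at 3.65 and 3.04 CPM. Cox8a stood at 591 and 585 CPM and Ndufa4 at 198 and 252 CPM, and their isoforms Cox8b, Cox8c and Ndufa4l2 were not analysed here, nor was Cox4i2. All these are UMI counts of 3′ ends, not divided by transcript length.

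LC differed from cDC2 in mitochondrial mRNA within both libraries. The mRNAs took 1.24% of UMIs in naive LC against 0.873% in naive cDC2, a log2 ratio of 0.50 (0.49 to 0.52), and 1.06% against 0.585% in the papain library (0.86, 0.86 to 0.87). Pooled over depth, the ribosomal RNAs summed went the other way, at -0.11 and -0.28, although mt-Rnr1 alone was higher in LC (0.55 and 0.20) and mt-Rnr2 lower (-0.20 and -0.34). The total mitochondrial share thus differed little, with 0.04 and 0.02, and the naive value was -0.10 as a mean of the cells' CPM. The order of the ribosomal RNAs turned with depth. In naive cells of 16000 to 25000 UMIs LC held 3.26%, against 2.59% to 2.75% in the cDC2 classes. In papain cells of 12000 to 16000 UMIs they held 2.85%, against 2.66% to 2.82%. LC were also higher in naive cells of 25000 UMIs or more and slightly in papain cells of 16000 to 25000 UMIs. They were lower or level in the other bands. The nuclear-encoded sum differed by 0.07 and 0.04. In the naive library 6 members were called higher and 2 lower in LC, against 11.6% and 13.8% of all genes. In the papain library 7 were called higher and 0 lower, against 6.80% and 6.02% of all genes.

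mt-Nd4l, mt-Nd2 and mt-Cytb were called higher in LC in both libraries, and no nuclear-encoded member over the limit (90 in either library) was called in both. Of all listed genes 3.37% were called higher and 3.95% lower in both. mt-Nd4l stood at 639 CPM in naive LC against 298 CPM in naive cDC2, and at 292 against 142 CPM in the papain library. mt-Nd2 stood at 2593 against 1549 CPM and at 2114 against 1044 CPM. mt-Cytb stood at 3234 against 1939 CPM and at 2391 against 1244 CPM. Genes encoded on the light strand were mostly lower in naive LC. mt-Nd6 was at 303 CPM in naive LC against 426 CPM in cDC2, mt-Tp at 37.4 against 70.5 CPM and mt-Tq at 23.5 against 43.8 CPM, whereas mt-Tc of the same strand was higher (16.2 against 8.68 CPM). The 8 heavy-strand mRNAs over the limit were all above 0. In the papain library mt-Nd6, mt-Tp and mt-Tq were above the cDC2 level in LC, with mt-Nd6 at 374 against 293 CPM.

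**Figure D4:**
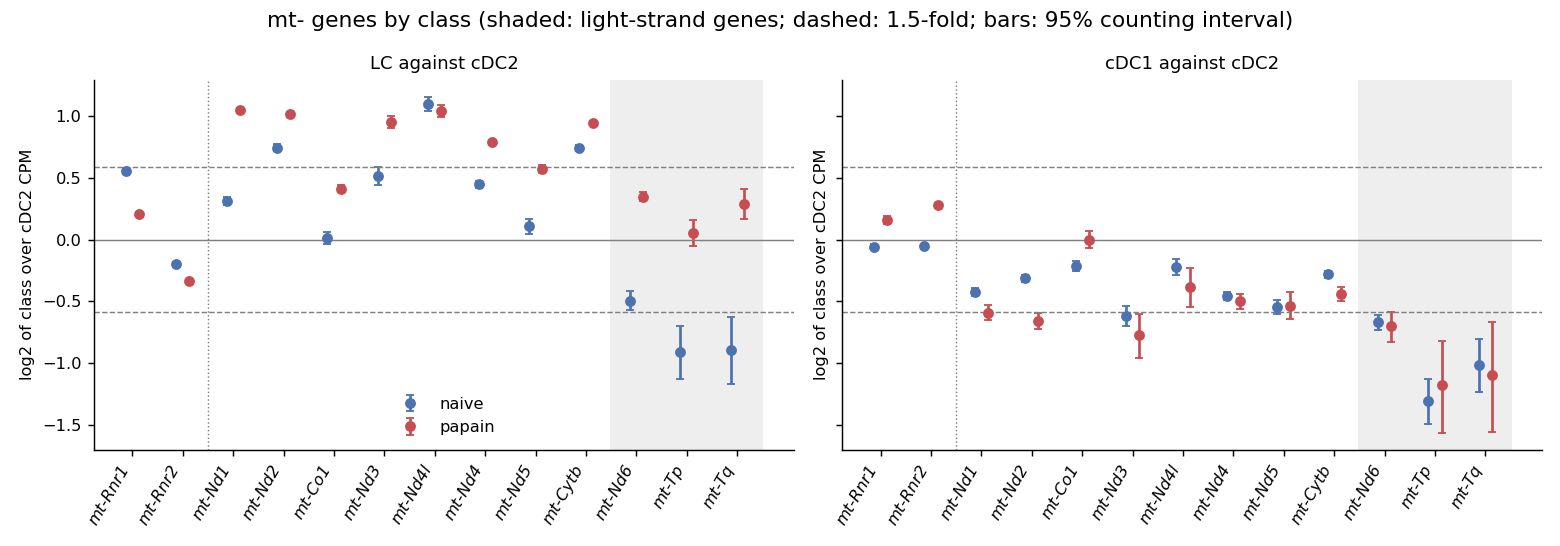
log2 of the CPM of LC (left) and cDC1 (right) over that of cDC2 (y axis) for the 13 mitochondrial genes of at least 10 CPM (x axis), naive in blue and papain in red, with 95% counting intervals; dashed lines mark 1.5-fold and the shaded genes are encoded on the light strand. Heavy-strand mRNAs lie at or above 0 in LC of both libraries and at or below 0 in cDC1. The light-strand genes mt-Nd6, mt-Tp and mt-Tq lie below 0 in cDC1 of both libraries and in naive LC, and above 0 in papain LC.

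Pooled over depth, cDC1 had a lower share of mitochondrial mRNA than cDC2 in both libraries. The mRNAs took 0.673% against 0.873% of UMIs in the naive library, a log2 ratio of -0.37 (-0.39 to -0.36), and 0.417% against 0.585% in the papain library (-0.49, -0.51 to -0.46). In naive cells of 8000 to 12000 UMIs, though, cDC1 held 1.00%, against 0.852% to 0.992% in the cDC2 classes. In papain cells of 16000 to 25000 UMIs they held 0.616%, within the 0.576% to 0.646% of the cDC2 classes. In every other band with at least 20 cDC1 cells the mRNA share was below that of each cDC2 class. Pooled over depth, the ribosomal RNAs had log2 ratios of -0.05 (naive) and 0.27 (papain). In UMIs, ribosomal RNA was thus 4.61-fold the mRNA in naive cDC1 and 7.03-fold in papain cDC1, against 2.40-fold and 1.88-fold in LC. How well the 3′ kit captures mitochondrial ribosomal RNA and tRNA beside mRNA was not examined, so these are not ratios of molecules. mt-Nd3, mt-Nd6, mt-Tp and mt-Tq, 4 of 13 mitochondrial genes over the limit, were called lower in cDC1 in both libraries, against 8.27% of all listed genes. mt-Nd3 stood at 158 against 242 CPM and at 87.2 against 149 CPM, and mt-Tp at 28.4 against 70.5 CPM and at 20.2 against 45.8 CPM.

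The nuclear-encoded sum of cDC1 was above that of cDC2 in the naive library (log2 ratio 0.26, interval 0.25 to 0.27) and slightly below it in the papain library (-0.10, -0.12 to -0.09). The median of all genes lay at -0.12 in the latter comparison, and relative to it the nuclear-encoded sum was 0.02. In the naive library 6 members were called higher and 4 lower in cDC1, against 11.9% and 17.2% of all genes, and in the papain library 0 and 10, against 9.66% and 16.7%. None of 88 nuclear-encoded members was called in both libraries, against 4.80% of all listed genes called higher and 8.27% lower in both. In naive cells Ndufv2 (117 against 57.2 CPM) and Ndufa12 (61.4 against 29.9 CPM), both of complex I, had the highest ratios, both at 1.04.

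CD301bhi and CD301blo cDC2 were close to each other. The log2 ratio of CD301bhi over CD301blo cells was -0.15 (naive) and -0.05 (papain) for the nuclear-encoded sum, -0.14 and -0.33 for the ribosomal RNAs, and 0.06 and -0.03 for the mitochondrial mRNAs. In the naive library 1 member was called higher (Ndufb4, 18.6 against 11.4 CPM) and 3 lower (Ndufaf4, mt-Tc and Cox6b2, each under 12 CPM in both classes), against 5.02% and 9.53% of all genes. In the papain library none was called in either direction, against 4.28% and 3.99%. No member was thus called in both libraries, against 1.92% of all listed genes called higher and 1.96% lower in both.

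Shares varied widely between cells of 1 class. The median mitochondrial share was 3.82% in naive classed cells, with quartiles of 2.74% and 5.47%, and 2.78% in papain classed cells, with quartiles of 2.03% and 4.08%. The nuclear-encoded share was narrower, with medians of 1.10% (quartiles 0.936% and 1.29%) and 1.32% (1.17% and 1.47%). Over 10% of UMIs fell on mitochondrial genes in 57 naive and 27 papain classed cells. The share of ribosomal RNA was lower in deeper cells. Spearman's rho with the cell's UMI total was -0.21 over 3042 naive and -0.32 over 7306 papain cells, and within classes it ran from -0.44 to -0.13 except in naive LC (0.30). The nuclear-encoded share was higher in deeper cells, with rho of 0.21 and 0.25, though not in naive cDC1 (-0.06). These are descriptions across the cells of a library, and both axes share the cell's UMI total.

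Within bands of UMIs per cell, pooled over the classes, the order of the libraries held. In cells of 8000 to 12000 UMIs the ribosomal RNAs took 3.95% of naive and 3.34% of papain UMIs, the mRNAs 1.02% and 0.615%, and the nuclear-encoded members 1.09% and 1.27%. In cells of 25000 UMIs or more the values were 2.32% and 1.73%, 0.882% and 0.708%, and 1.20% and 1.35%. The bands are ranges, the deepest has no upper limit, and the libraries held the classes in different proportions. The bands were therefore also split by class, a choice made after seeing the data, which left 24 pairs of class and band with at least 20 cells in each library. The papain value was the lower one in 22 of 24 for ribosomal RNA and in 20 of 24 for mRNA, and the higher one in 22 of 24 for the nuclear-encoded members. In the 3 cDC2 classes all bands kept these orders. The exceptions were 1 of 4 cDC1 and 1 of 5 LC bands for ribosomal RNA, 1 of 4 cDC1 and 3 of 5 LC bands for mRNA, and 2 of 4 cDC1 bands for the nuclear-encoded members. Pooled over the classes, ribosomal RNA and mRNA were not tied to each other across cells, with rho of -0.01 in naive and -0.06 in papain cells. Within classes rho ran from -0.18 in papain cDC1 to 0.25 in papain LC. The authors' mRNA clusters cover cDC2 only, without cDC1 and LC. Across them the mitochondrial share ran from 3.11% to 6.48% over 7 naive and from 2.48% to 4.96% over 9 papain clusters. The nuclear-encoded share ran from 0.920% to 1.26% and from 1.05% to 1.43%.

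**Figure D5:**
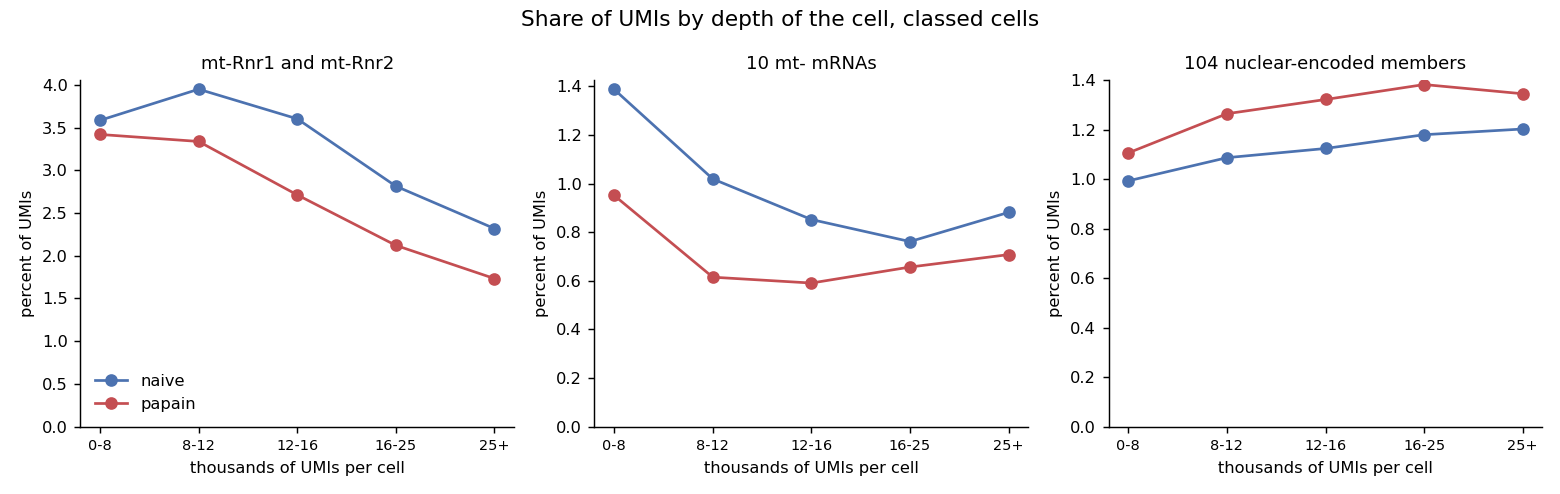
Percent of UMIs (y axis) on mitochondrial ribosomal RNAs, mitochondrial mRNAs and nuclear-encoded members in classed cells of 5 depth bands (x axis, UMIs per cell divided by 1000), naive in blue and papain in red, pooled over the cells and classes of a band with no error bars. The papain line lies below the naive line in both mitochondrial panels and above it in the nuclear-encoded panel in every band.

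Some droplets had no class, 429 naive and 290 papain. Their mitochondrial mRNA share was above that of the classed cells. It took 1.18% and 1.32% of their UMIs, against 0.874% and 0.654% in classed cells, while the nuclear-encoded members took 1.11% and 1.22%. T cell markers summed to 839 and 2083 CPM in these droplets. In those with a T cell transcript, mRNA made up 36.4% and 38.6% of mitochondrial UMIs, and in those without 27.3% and 37.2%. The droplets with a T cell transcript had 1.32% and 1.45% of UMIs on mitochondrial mRNAs, and those without 1.12% and 1.01%.

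Other gene groups of the organelle were set beside the members. Of all 7363 listed genes over the level limit, 4149 were above 0 over all classes, 7.96% were called higher and 8.30% lower. Of 64 mitochondrial ribosomal protein genes over the level limit, 57 were above 0 over all classes and 10 (15.6%) were called higher. Their median was 0.32, close to the 0.30 of the 75 nuclear-encoded subunits. Mrpl38 had the highest ratio, at 82.5 and 236 CPM, and Mrps33 the lowest, at 24.1 and 18.1 CPM. The cytosolic ribosome list, which by its prefix also takes S6 kinase genes, went the other way, with 27 of 88 above 0, 5 called higher and 17 lower, and a median of -0.25. Of 13 genes of the tricarboxylic acid cycle 10 were above 0 and none was called, with Sucla2 highest (29.9 and 38.9 CPM) and Pdha1 lowest (12.9 and 9.96 CPM).

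Genes that maintain and transcribe mitochondrial DNA went both ways. Of 10 over the limit 5 were above 0 over all classes and none was called, with a median of -0.0031. The classes differed, with 7 of 9 above 0 in CD301bhi cDC2 (median 0.15), 6 of 10 in CD301bint cDC2 (0.11), 4 of 10 in CD301blo cDC2 (-0.10), 3 of 11 in cDC1 (-0.28) and 5 of 10 in LC (-0.16). Ssbp1 was called higher in CD301bhi and CD301bint cDC2 and Mterf4 in CD301bint cDC2, while Mterf3 was called lower in CD301blo cDC2 and cDC1, Polg in cDC1 and Gabpb1 in LC. Ssbp1, which binds single-stranded mitochondrial DNA, was highest over all classes (16.5 and 23.6 CPM) and Mterf3 lowest (10.8 and 8.06 CPM). Of 16 other chain and assembly genes 11 were above 0 and 3 were called higher, against 7.96% of all listed genes. The 3 were Etfdh, which feeds electrons from fatty acid oxidation into the chain (27.8 and 60.4 CPM), AA467197, named Nmes1 in older lists (35.2 and 58.0 CPM) and Lyrm2 (23.5 and 36.9 CPM). Cox17, a copper chaperone for complex IV, was lowest at 108 and 77.8 CPM. The nuclear RNAs Malat1 (49158 and 37057 CPM) and Neat1 (474 and 350 CPM) were also lower in the papain library, at log2 ratios of -0.41 and -0.44, beside the mitochondrial -0.41. The part of RNA quality in the mitochondrial difference was not tested.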

How the data were processed

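Cells were sorted as MHCIIhi CD11c+ B220- from lymph nodes, and mRNA and antibody tags were captured with a 3′ droplet kit in 1 naive and 1 papain library. Per the submitters' processing notes, reads were handled with Cell Ranger 3.0.1 on mm10 and with Partek; the annotation is not given in the sources used here. The authors deposited log2 values per cell and gene, log2(CPM + 1), with each cell's class, cluster and UMI total. Whole UMI counts, which the authors had turned into these log2 values, were recovered from them: at no more than 50 UMIs, 100% of values lay within 0.02 UMI of a whole number. The listed genes held 94.2% of naive and 94.9% of papain UMIs.

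UMIs were summed over the cells of a class and library and divided by all UMIs of those cells. Levels carry exact Poisson and ratios exact conditional binomial 95% intervals, which cover counting error only. With 1 library per condition no test was run and no count model was used. No doublet caller was run, and the authors' classes were used as deposited. A call needed a ratio of 1.5 and 10 CPM in the higher group. The call was also run on simulated counts with known ratios. These held counting error only, so they cannot show how calls would vary between libraries. Named genes were all mt- genes, all called members, per complex the most abundant subunit and those of highest and lowest ratio, and fixed isoform groups. The members and gene lists were chosen with earlier results of these data known. 1 LC marker of these lists is not reported here and was left out of the marker sum. Promoter windows came from RefSeq (GRCm38.p6). Analyses used Python 3.11.15, numpy 2.4.6, pandas 2.3.3, scipy 1.17.1 and matplotlib 3.10.9.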

Additional observations from a re-analysis of the deposited data

Results flagged for a closer look

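mt-Tq, the mitochondrial tRNA for glutamine, moved in opposite directions between the libraries in different classes. Its log2 ratio of papain over naive was 0.67 in LC, against -0.64 in CD301bhi cDC2, -0.60 in CD301blo cDC2 and -0.59 in cDC1. The difference between classes was not tested, since each class has 1 library per condition.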

How the results depend on the processing

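No paired analysis was possible because each condition has 1 library and no replicate number. The mitochondrial share was lower and the nuclear-encoded share higher in the papain library under every alternative run, with log2 ratios over all classes of -0.48 to -0.37 and 0.16 to 0.24. The naive and papain mitochondrial shares were 3.97% and 3.03% in cells with under 10% of UMIs on mitochondrial genes, 4.06% and 3.05% in cells with no count of Cd3e or Trac, 4.16% and 3.16% in cells of 8000 to 25000 UMIs, 4.33% and 3.28% as a mean over cells, and 4.22% and 3.14% per UMI outside the mitochondrial genes. The nuclear-encoded share was 1.15% (naive) below the 10% limit, 1.14% (naive) with no count of Cd3e or Trac, 1.34% (papain) in cells of 8000 to 25000 UMIs, 1.12% and 1.31% as a mean over cells, 1.19% and 1.38% per UMI outside the mitochondrial genes, 1.12% and 1.30% without assembly factors, and 1.10% and 1.29% without pseudogene symbols. The difference of the mitochondrial and nuclear-encoded log2 ratios was -0.61 below the 10% limit, -0.63 in cells of 8000 to 25000 UMIs and as a mean over cells, -0.65 without pseudogene symbols and -0.57 with classes weighted equally. Members called between libraries (11 higher, 2 lower) numbered 4 lower as a mean over cells, 4 higher and 1 lower with 10 added to both CPM, 5 higher relative to the median ratio, 9 lower with no level limit, and 1 lower either at 50 CPM or without pseudogene symbols. In both libraries, cDC1 against cDC2 gave 1 higher and 2 lower relative to the median ratio, 7 lower with no level limit and 2 lower at 50 CPM. With no level limit 1 member was lower in LC and 2 in CD301bhi cDC2. The sign turned for LC against cDC2 in naive mitochondrial sums as a mean over cells (-0.10), for cDC1 against cDC2 in papain nuclear-encoded sums relative to the median (0.020), and, with mitochondrial mRNAs only, for CD301bhi against CD301blo cDC2 in the naive library (0.059) and cDC1 against cDC2 in the papain library (-0.49). The cause was not tested. The settings with mitochondrial mRNAs only and without pseudogene symbols were chosen after seeing the data.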
